A study of Homo sapiens with 16 samples.

Results

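The 10 genes GPI, ALDOA, ALDOC, TPI1, GAPDH, PGK1, PGAM1, ENO1, ENO2 and PKM encode glycolytic enzymes, namely glucose phosphate isomerase and those from aldolase to pyruvate kinase. They were chosen by name, and all peaks whose centre lay within 50 kb of a start site of one of their protein-coding transcripts (GENCODE annotation on GRCh37) were collected. This gave 174 of 23398 peaks, in 22 of 11664 merged sites, for 10 of 19820 protein-coding genes. A peak is a stretch of genome recovered above background by chromatin immunoprecipitation and sequencing (ChIP-seq), here of the hypoxia-inducible factor subunits HIF-1α or HIF-2α. A merged site is a run of peaks from the 16 libraries that overlapped by at least 1 bp.

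The libraries came from A549 (lung cancer), HCT116 (colorectal cancer), PC3 (prostate cancer) and T47D (breast cancer) cells. All cultures were hypoxic, at 0.5% oxygen over 16 hours, and the antibodies were rabbit polyclonals, PM14 for HIF-1α and PM9 for HIF-2α. Each isoform had 2 replicates per cell line, 8 groups in all, and each cell line stands for 1 tumour. Peak lists from normoxic cells, from a no-antibody control or from HIF-1β were not used here, so every comparison is between hypoxic libraries, and an isoform is compared through different antibodies. The labels do not say that replicates were separate cultures, and p-values then measure only the spread between these libraries. Peak lists hold no expression values, so the cell line labels could not be checked against marker genes.

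Hypoxia-inducible factors are heterodimers of an oxygen-regulated α subunit and HIF-1β. Without oxygen the α subunit escapes hydroxylation and degradation, and the dimer binds the core motif RCGTG (ACGTG or GCGTG) and activates transcription. Glycolytic enzymes are classical HIF targets, and their induction allows cells to keep making ATP when respiration is limited by oxygen.

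Peak lists held 275 to 4505 peaks. Sequencing depth is unknown, so a gene without a peak may still be bound below the level at which peaks were called. Scores were turned into score percentiles, the percentage of peaks in the same library that scored at or below the peak, because the scale of the score is not stated. The best peak of a library has percentile 100. Percentile points are not equal steps of score, and near the top of a list widely different scores lie close together. In HCT116 HIF-1α replicate 2, scores of 1032.67 at PGK1 and 2256.97 at ALDOA gave percentiles of 98.7 and 99.7. HIF-1α lists were longer than HIF-2α lists in HCT116, PC3 and T47D and shorter in A549. The first PC3 HIF-2α replicate was the shortest list, and it held 4 of the 174 peaks, the fewest of any library, whereas the second HCT116 HIF-1α replicate held 20, the most. Replicates keep the numbers of the labels, which are 2 and 3 in A549 and HCT116 and 1 and 2 in PC3 and T47D.

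Most of the peaks were at the start sites of the genes. Of the 174 peaks, 138 lay within 1 kb of a start site of one of the 10 genes, and 144 had one of the 10 as their nearest gene. GPI, ALDOA, PGK1 and ENO1 had a site at or near their own start in all 16 libraries. The GPI site covered chr19:34848212-34852249. Its median centre was 5776 bp upstream of the start of the representative transcript (the annotation's canonical one), at the most upstream of the 9 coding start sites of the gene. The ALDOA site covered chr16:30074839-30077905 with its centre 214 bp upstream of the start. The PGK1 site was at chrX:77358808-77360448 with its centre 159 bp upstream, and the ENO1 site was at chr1:8937673-8939951 with its centre 199 bp upstream. The GPI, ALDOA, PGK1 and ENO1 sequences below are shown because these 4 sites recurred in every library. Capitals mark RCGTG on the printed strand or its complement CACGT or CACGC, so a palindromic CACGTG holds the motif on both strands. Each stretch is the one with the most motif copies within 150 bases of the part covered by at least 75% of the site's peaks, outside annotated UTRs.
GPI upstream start, chr19:34850218-34850367, plus strand: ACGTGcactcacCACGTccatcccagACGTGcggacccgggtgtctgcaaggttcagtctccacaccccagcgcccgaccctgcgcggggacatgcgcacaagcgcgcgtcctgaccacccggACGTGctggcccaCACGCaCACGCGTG
ALDOA intron beside the first exon, chr16:30077249-30077344, plus strand: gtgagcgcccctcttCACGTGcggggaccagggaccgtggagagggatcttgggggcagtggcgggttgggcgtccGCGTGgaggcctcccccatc
PGK1 promoter, chrX:77359422-77359571, plus strand: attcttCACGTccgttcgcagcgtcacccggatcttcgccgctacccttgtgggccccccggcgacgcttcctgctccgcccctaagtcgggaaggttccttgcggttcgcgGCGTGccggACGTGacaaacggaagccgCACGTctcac
ENO1 first intron, chr1:8938386-8938535, minus strand: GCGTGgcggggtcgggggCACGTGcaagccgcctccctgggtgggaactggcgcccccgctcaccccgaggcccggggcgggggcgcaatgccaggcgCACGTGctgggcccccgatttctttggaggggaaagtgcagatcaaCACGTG
These stretches held 7 copies of RCGTG at GPI, 3 at ALDOA, 4 at PGK1 and 7 at ENO1, both strands counted. The GPI stretch ended 5734 bp upstream of the representative start. The ALDOA stretch ran from 168 to 263 bp downstream of the start, the PGK1 stretch from 323 to 174 bp upstream and the ENO1 stretch from 210 to 359 bp downstream.

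The remaining genes had sites that were missing from some lists. PGAM1, in 15 libraries, had its site at chr10:99183795-99186840 with its centre 109 bp upstream of the start. PGAM1 faces RRP12 across this promoter, and the start of RRP12 was the nearer one to the median centre. PKM, on the minus strand, had a pair of sites, each in 15 libraries. Its promoter site at chr15:72521853-72524830 was centred 431 bp downstream of the start, and its intronic site at chr15:72518432-72519988 was centred 4305 bp downstream, both in intron 1. GAPDH had a site in 14 libraries at chr12:6641270-6645064, centred 535 bp upstream of the start. TPI1 had a site in 11 libraries at chr12:6976089-6977994, centred 475 bp downstream in intron 1, and ENO2 had a site in 11 libraries at chr12:7022752-7024587, centred 100 bp upstream. ALDOC had a site in 8 libraries at chr17:26902682-26904719, centred 75 bp upstream. ENO1 had a further site, at chr1:8963649-8964597, centred 25427 bp upstream in intergenic sequence, which was in 3 HIF-2α libraries and in 0 HIF-1α libraries. The PKM pair and the upstream ENO1 site are shown because PKM and ENO1 had a site besides that at the promoter, ALDOC and TPI1 because their sites were found in more HIF-1α than HIF-2α libraries, and PGAM1 for its closely spaced motif copies.
PKM promoter site, chr15:72522865-72523014, minus strand: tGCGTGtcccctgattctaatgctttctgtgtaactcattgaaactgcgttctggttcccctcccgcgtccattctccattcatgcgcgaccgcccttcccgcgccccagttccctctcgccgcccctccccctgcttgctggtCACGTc
PKM intronic site, chr15:72519202-72519236, minus strand: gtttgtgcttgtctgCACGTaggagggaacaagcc
ALDOC promoter, chr17:26904010-26904159, minus strand: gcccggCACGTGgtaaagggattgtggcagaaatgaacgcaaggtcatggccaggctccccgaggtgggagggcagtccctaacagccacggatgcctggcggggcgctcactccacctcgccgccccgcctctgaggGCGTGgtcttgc
TPI1 first intron, chr12:6977194-6977263, plus strand: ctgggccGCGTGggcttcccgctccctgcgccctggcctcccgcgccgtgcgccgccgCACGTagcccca
PGAM1 promoter, chr10:99185766-99185794, plus strand: ctccGCGTGcttACGTGcgctccgtgact
ENO1 upstream site, chr1:8963934-8963968, minus strand: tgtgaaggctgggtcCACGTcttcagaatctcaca
The PGAM1 stretch lies in an annotated UTR and was kept to 29 bases. It held 1 GCGTG and 1 ACGTG separated by a few bases. The intronic PKM site and the upstream ENO1 site each held 1 copy in their shared core, against 8 in the core of the PKM promoter site and 19 in that of the ENO1 promoter site.

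**Figure D1:**
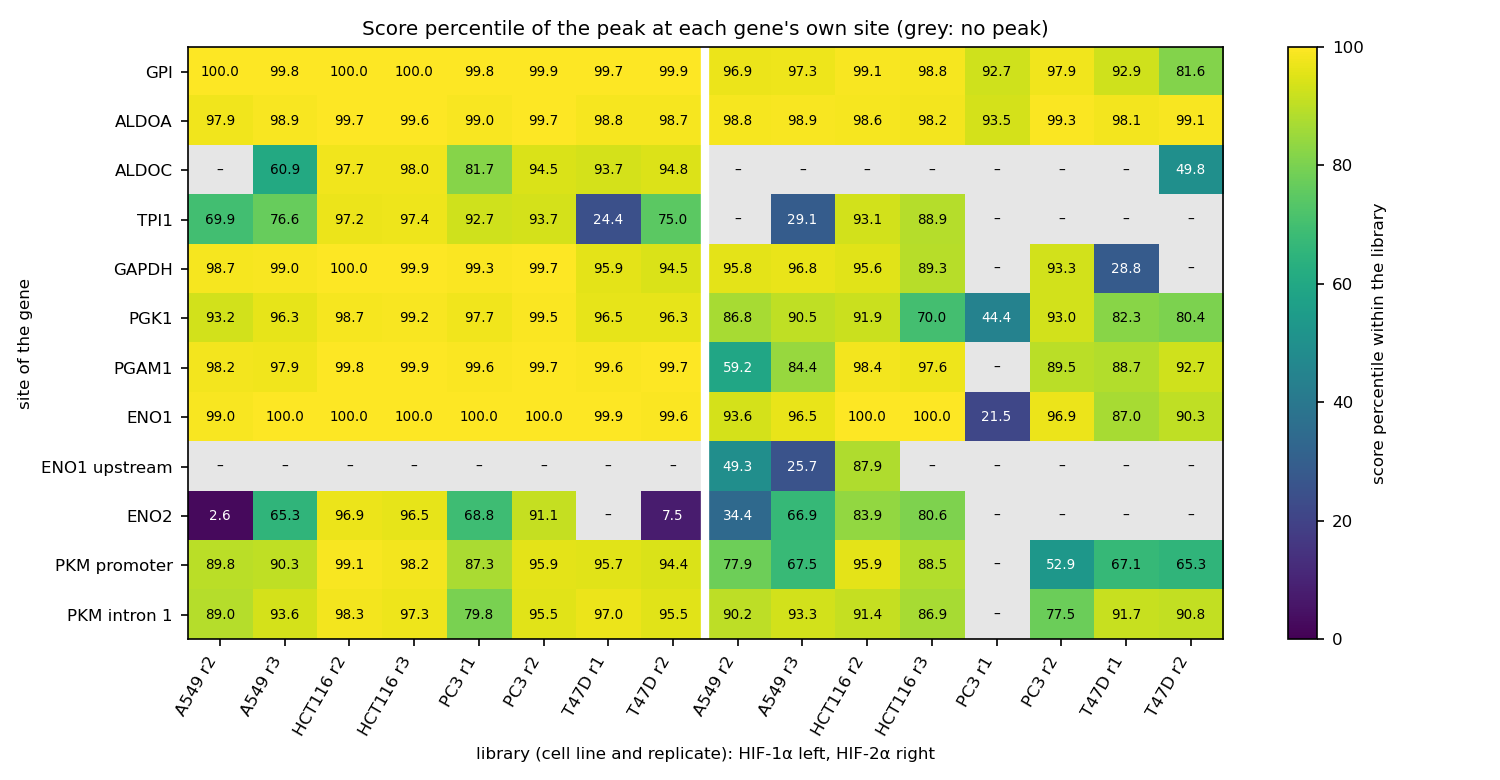
Score percentile (0 to 100, colour and number) of the peak at each of 12 sites of the 10 genes (rows) in each of the 16 libraries (columns; r, replicate), with HIF-1α on the left and HIF-2α on the right. Grey cells with a dash are libraries without a peak there. GPI, ALDOA, PGK1 and ENO1 have no grey cell, and ALDOC has 1 on the left and 7 on the right.

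HIF-1α was found at the gene's own site in 78 of 80 pairs of gene and library, and HIF-2α in 60 of 80. Over all 19820 protein-coding genes too, more had a peak within 50 kb in all 8 HIF-1α libraries (302) than in all 8 HIF-2α libraries (57). HIF-1α lists were the longer in HCT116, PC3 and T47D, and the part of list length in these counts was not tested. In HCT116 and PC3, all 10 genes had their own HIF-1α site in both replicates, and in A549 and T47D 9 of 10 did. HIF-2α sites in both replicates numbered 9 in HCT116, 8 in A549, 6 in T47D and 4 in PC3. In HCT116 ALDOC was the 1 gene missing from HIF-2α. In PC3, where the first replicate had the shortest list, GAPDH, PGAM1 and PKM were in the second HIF-2α replicate and ALDOC, TPI1 and ENO2 in neither.

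Counted within 50 kb, which adds sites of neighbouring genes, 9 of the 10 genes had a peak in all 8 HIF-1α libraries, against 1.52% of all protein-coding genes (302 of 19820). The exception was ALDOC with 7. GPI, ALDOA, PGK1 and ENO1 had a peak in all 8 HIF-2α libraries, against 0.288% of all genes (57 of 19820). The same 4 genes had a peak in all 16 libraries, against 0.237% of all genes (47 of 19820). GPI, ALDOA, PGK1, PGAM1, ENO1 and PKM are on the study's list of genes bound in every cell line, chosen in part on these libraries. The recurrence of these genes beside the share of all genes is therefore partly built in. With peaks scoring at least 100 alone, 2 of the 10 genes remained in all 8 HIF-2α libraries. Without PC3 HIF-2α replicate 1, the shortest list, PGAM1 and PKM joined GPI, ALDOA, PGK1 and ENO1, and 6 of the 10 genes had a peak in all other HIF-2α libraries and in all other libraries.

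GPI, the isomerase that turns glucose phosphate into fructose phosphate, had the least spread of HIF-1α percentiles. They were 99.7 at the lowest, 99.9 at the median and 100 at the highest of the 8 libraries. In the 8 HIF-2α libraries they were 81.6, 97.1 and 99.1, the second T47D replicate being lowest. No HIF-2α value reached any HIF-1α value. GPI was the best peak of the whole list in A549 HIF-1α replicate 2 and in HCT116 HIF-1α replicate 3.

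The aldolases split fructose bisphosphate into the triose phosphates. ALDOA, the form of muscle and of most cancer cells, ranged from 97.9 to 99.7 in HIF-1α libraries (median 98.9). In HIF-2α libraries it ranged from 93.5 to 99.3 (median 98.7), and on this percentile scale the isoforms overlapped almost entirely. ALDOA was the best-scoring of the 10 genes in all 6 HIF-2α libraries of A549, PC3 and T47D, at ranks 5 to 19 of their lists. ALDOC, best known from brain, had a different pattern. Its HIF-1α promoter peak was at 97.7 and 98.0 in HCT116, 93.7 and 94.8 in T47D, and 81.7 and 94.5 in PC3. A549 had it in replicate 3, at 60.9, and not in replicate 2. With HIF-2α it was in T47D replicate 2 alone, at 49.8.

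TPI1, which interconverts the triose phosphates, had HIF-1α percentiles of 97.2 and 97.4 in HCT116, 92.7 and 93.7 in PC3, 69.9 and 76.6 in A549, and 24.4 and 75.0 in T47D. HIF-2α was at 93.1 and 88.9 in HCT116 and at 29.1 in A549 replicate 3, with no peak in the other 5 libraries. HCT116 was thus the 1 cell line with TPI1 bound by both isoforms in both replicates. GAPDH, which oxidises glyceraldehyde phosphate and yields NADH, ranged from 94.5 to 99.98 with HIF-1α (median 99.2). HIF-2α was at 89.3 to 96.8 in A549, HCT116 and PC3 replicate 2, at 28.8 in T47D replicate 1, and absent from PC3 replicate 1 and T47D replicate 2. The T47D HIF-2α peak was 256 bp wide with a score of 53.78, near the lowest score of any list.

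PGK1 makes the first ATP of the pathway's payoff phase. Its HIF-1α percentiles were 93.2 at the lowest, 97.1 at the median and 99.5 at the highest, and its HIF-2α percentiles were 44.4, 84.6 and 93.0. The lowest came from PC3 replicate 1. All 8 HIF-1α values were above all 8 HIF-2α values, with 93.2 against 93.0 at the closest pair. PGAM1, which moves the phosphate within phosphoglycerate, ranged from 97.9 to 99.9 with HIF-1α (median 99.6). HIF-2α was absent from PC3 replicate 1, at 59.2 and 84.4 in A549, and at 88.7 to 98.4 in the other 5 libraries.

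The enolases form phosphoenolpyruvate. ENO1, the ubiquitous form, had a lowest HIF-1α percentile of 99.0 and a median of 99.98. In both PC3 HIF-1α libraries and in A549 replicate 3 it was the best peak of the list. HIF-2α also had ENO1 as its best peak in both HCT116 replicates. In the other HIF-2α libraries ENO1 was at 93.6 and 96.5 in A549, 87.0 and 90.3 in T47D, 96.9 in PC3 replicate 2 and 21.5 in PC3 replicate 1. ENO2, the neuronal form, had the lowest HIF-1α values of the 10 genes at its own promoter. A549 gave 2.62 and 65.3, HCT116 gave 96.9 and 96.5, PC3 gave 68.8 and 91.1, and T47D gave 7.45 in replicate 2 with no peak in replicate 1. HIF-2α was at 34.4 and 66.9 in A549 and at 83.9 and 80.6 in HCT116, and absent from PC3 and T47D. ENO2 was thus found with both isoforms in both replicates of A549 and HCT116 alone.

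PKM encodes pyruvate kinase M, which makes pyruvate and the last ATP of the pathway. Taking the better of its sites, HIF-1α percentiles were 87.3 at the lowest, 95.7 at the median and 99.1 at the highest. HIF-2α percentiles were at most 95.9 with a median of 90.5, and PC3 replicate 1 held neither site.

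The order of the pair varied between libraries. With HIF-1α the promoter peak minus the intronic peak was between -3.34 and 7.51 percentile points (median 0.63), with the promoter higher in 5 libraries and the intronic site higher in 3. With HIF-2α it was between -25.8 and 4.51 points (median -24.6, 7 libraries). The intronic site was the higher by 12.3 to 25.8 points in all 5 HIF-2α libraries of A549, PC3 and T47D that held the sites. In HCT116 the promoter was higher by 4.51 and 1.55 points. This contrast was noticed in the data and was not tested. The order within a library does not depend on the scale, but the size in points does. In HCT116 HIF-1α replicate 2, scores of 1256.6 (promoter) and 815.72 (intronic) lay 0.84 points apart. In PC3 HIF-2α replicate 2, scores of 71.9 (promoter) and 109.53 (intronic) lay 24.6 points apart.

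**Figure D2:**
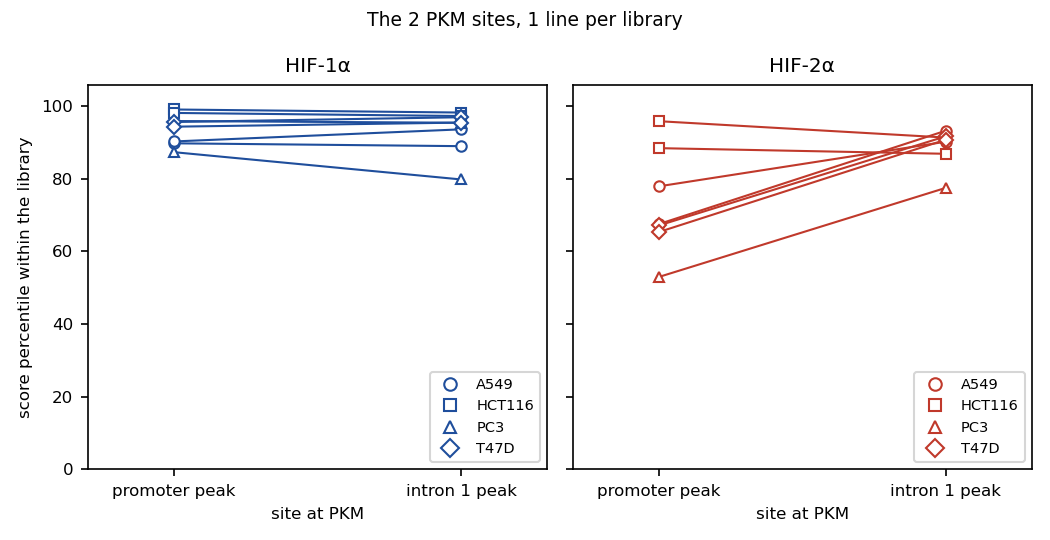
Score percentile within the library (vertical axis) of the PKM promoter peak and the PKM intron 1 peak, joined by 1 line per library, for HIF-1α (left, 8 libraries) and HIF-2α (right, 7 libraries); symbols give the cell line. On this percentile scale, where points are not equal steps of score, HIF-1α lines are nearly flat. Of the HIF-2α lines, 5 of 7 rise towards the intronic site by 12.3 points or more.

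The first question was whether the isoforms differed at these genes. For every gene the best percentile of any peak within 50 kb was taken, or 0 without a peak, and the HIF-1α minus HIF-2α difference, averaged over the 4 cell lines, was tested by exchanging isoform labels within each cell line. Over the 3789 genes with a peak in at least 4 libraries, 10.9% were called higher with HIF-1α (414 genes) and 0.0264% higher with HIF-2α (1 gene, BHLHE40), at an adjusted p below 0.05 by the two-sided exact permutation test with Benjamini-Hochberg adjustment. Of the 10 glycolytic genes, 7 were called higher with HIF-1α and 0 higher with HIF-2α. At an unadjusted exact p below 0.05 the count was 9 of 10, all in the direction of HIF-1α, against 1198 of 3789 genes in either direction. The median difference was 20.1 points over the 10 genes and 23.9 over all genes tested, so in percentile points the glycolytic genes were near the tested genes at large. Points do not measure size of score. GPI differed by 5.24 points and by 0.83 in log10 score, and TPI1 by 43.0 points and by 0.40 in log10 score.

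The 7 called genes were GPI, ALDOC, TPI1, GAPDH, PGK1, PGAM1 and ENO2. HIF-1α exceeded HIF-2α by 5.24 percentile points at GPI, with means of 99.9 ± 0.099 against 94.7 ± 5.81 (SD, n = 8 each). At PGK1 the difference was 17.3 points, with 97.2 ± 2.06 against 79.9 ± 16.2. At PGAM1 it was 23.01 points, with 99.3 ± 0.79 against 76.3 ± 33.2. At GAPDH it was 35.9 points, with 98.4 ± 2.04 against 62.4 ± 44.7. At TPI1 it was 43.0 points, with 78.4 ± 24.4 against 35.4 ± 41.7. For GPI, TPI1, GAPDH, PGK1 and PGAM1 the exact permutation p was 0.00154, the smallest that the 1296 relabellings can give, and the adjusted p was 0.0289, with the same order in 4 of 4 cell lines. ALDOC differed by 57.6 points, the most of the 10 genes (77.7 ± 33.8 against 20.1 ± 27.9; exact permutation p = 0.00463, adjusted p = 0.0423), with the same order in 4 of 4 cell lines. The ENO2 call is that of TPI1. Their starts are 47049 bp apart, the TPI1 peak lay within 50 kb of ENO2, and the values within 50 kb were identical. With each peak given to its nearest gene alone, ENO2 differed by 20.4 points (exact permutation test, adjusted p = 0.240) and TPI1 by 52.0 points (adjusted p = 0.0248), and 5 of the 9 genes then tested were called, against 9.73% of all 1398 genes tested. PGAM1 was not tested there, since RRP12 was nearer to its peaks.

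ALDOA, ENO1 and PKM were not called in this test. On the log10 score ALDOA was called higher with HIF-1α (exact permutation test, adjusted p = 0.0233), as were 48.8% of all genes tested. ALDOA differed by 1.01 points (99.1 ± 0.62 against 98.0 ± 1.90; exact permutation p = 0.153, adjusted p = 0.231), and HIF-2α was the higher in A549 by 0.42 points. ENO1 differed by 14.1 points and PKM by 16.1 points, each with an exact permutation p of 0.00926 and an adjusted p of 0.0620. HIF-1α was higher in 3 of 4 cell lines for both. ENO1 and PKM were called under other settings, with exact permutation tests giving an adjusted p of 0.0159 and 0.0261 on the log10 score, 0.0275 and 0.0313 with equal numbers of peaks, 0.0393 for both with scores of at least 100, and 0.0436 and 0.0182 within 1 kb. All 8 HIF-1α libraries lay above all 8 HIF-2α libraries for GPI and PGK1, 2 of the 10 genes, against 2.56% of all genes tested (97 of 3789).

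**Figure D3:**
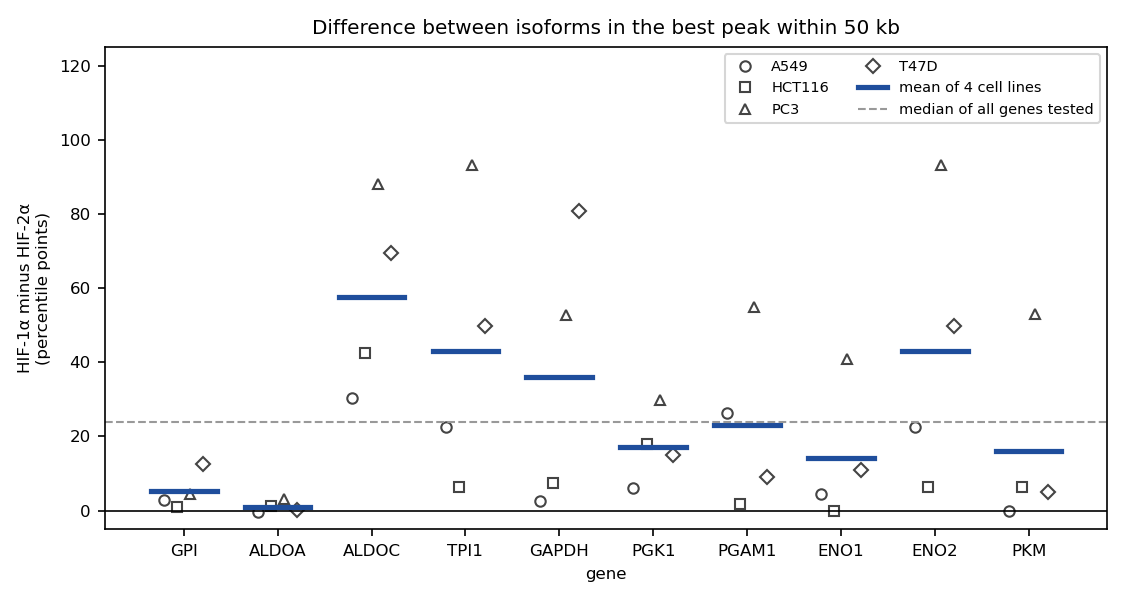
HIF-1α minus HIF-2α in the score percentile of the best peak within 50 kb (vertical axis, percentile points) for each of the 10 genes. Open symbols are the 4 cell lines, each the difference of 2 replicate means, the blue bar is their mean, and the dashed line is the median of all 3789 genes tested, 23.9 points; ALDOA is close to 0, and PC3 or T47D gives the widest difference at every gene.

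Some of these sizes depended on the PC3 HIF-2α libraries. Without PC3 HIF-2α replicate 1, the shortest list, 7 of the 10 genes were still called (9.50% of all genes tested), but the difference fell to 24.3 points at GAPDH, 11.8 at PGAM1, 11.2 at PGK1, 6.38 at PKM and 4.64 at ENO1. Without PC3 HIF-2α replicate 2 it rose to 23.5 points at ENO1 and 25.8 at PKM.

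Calls were also lost where the sizes hardly moved. Without A549 HIF-1α replicate 3, 2 of the 10 genes were called (5.40% of all genes tested), with differences of 42.1 points at TPI1, 16.9 at PGK1 and 23.04 at PGAM1. Without A549 HIF-2α replicate 2, 3 were called (4.44% of all genes), and without PC3 HIF-1α replicate 2, 3 were called (11.6%), with a difference of 35.9 points at GAPDH as before. Without PC3 HIF-1α replicate 1, 4 were called (19.3%), and without T47D HIF-2α replicate 1, 4 were called (4.98%). Without A549 HIF-1α replicate 2, 8 were called (19.03%).

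List length moved with the isoform, and its part in the differences was not tested. With the 275 best peaks of every library alone, 7 of the 10 genes were called, against 37.1% of the 719 genes then tested, but they were not the same 7. TPI1 and, through its peak, ENO2 lost the call (25.1 points, exact permutation test, adjusted p = 0.0541), and ENO1 and PKM gained it. Percentiles were taken here among the 275 peaks, which spreads the top peaks of the longer lists further apart. These sizes therefore cannot be set directly against those from the full lists. On this scale the difference was 10.9 points at GPI, 36.6 at PGK1 and 41.7 at PGAM1. In A549, where the HIF-1α lists were the shorter, the difference over the full lists was positive for 8 of the 10 genes and for 22.7% of all genes tested. It was positive for 9 of the 10 and 89.4% of all genes in HCT116, for 10 and 84.2% in PC3, and for 10 and 41.9% in T47D, equal values such as 0 and 0 counting as not positive.

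The next question was whether the cell lines differed within an isoform, tested exactly over the 105 ways of dividing 8 libraries into 4 pairs. This exact test allows no p under 0.00952, so a call is hard to reach after adjustment over many genes. An absence of calls therefore does not show that the cell lines were alike. With HIF-1α 0% of 7325 genes were called and 0 of the 10, and with HIF-2α 0% of 2016 genes were called and 0 of the 10, by the exact permutation test with Benjamini-Hochberg adjustment, whose smallest adjusted p was 0.203 and 0.265. At an unadjusted exact p below 0.05, 5 of the 10 genes passed with HIF-1α (ALDOC, TPI1, GAPDH, PGAM1 and ENO2), against 16.0% of all genes. With HIF-2α 2 of the 10 passed (TPI1 and ENO2), against 6.35% of all genes. TPI1 and ENO2 had identical values in both tests, through the same peaks. Percentiles of different cell lines come from lists of different length. By rank in the list rather than percentile, the HIF-1α peak of ALDOC was at 49 and 38 in T47D and at 104 and 91 in HCT116, the reverse of the order of the percentiles. The part of list length in these values was not tested.

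**Figure D4:**
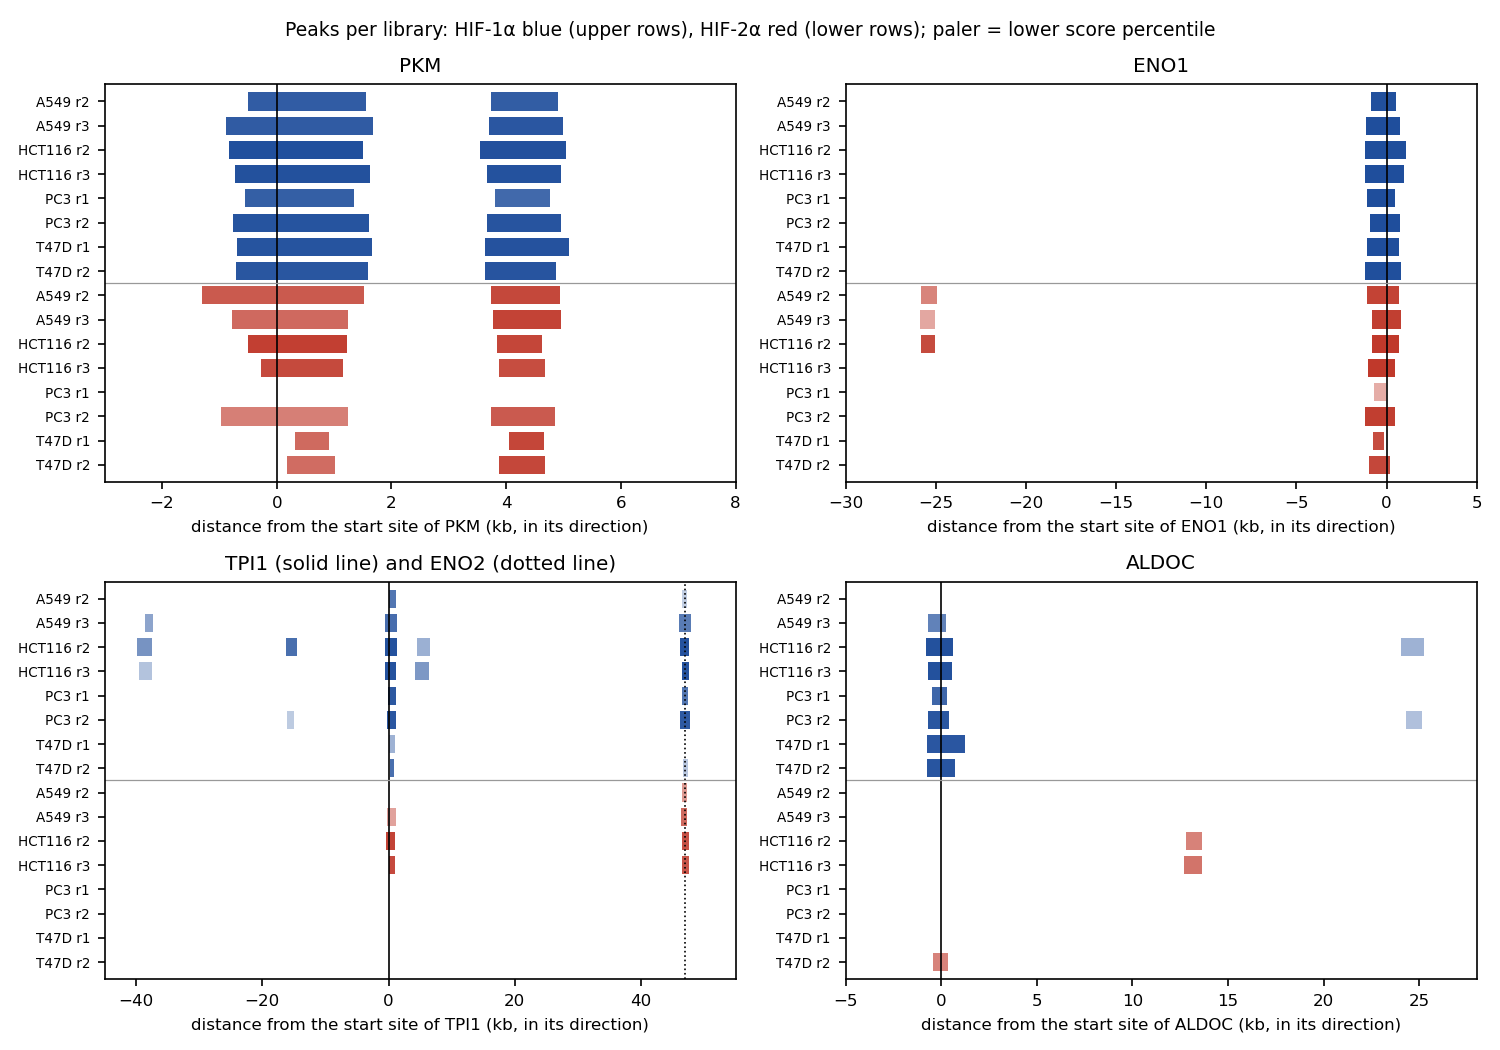
Extent of every peak by library (rows; r, replicate) as distance in kb from the representative start site of PKM, ENO1, TPI1 and ALDOC in the direction of the gene, with HIF-1α in blue, HIF-2α in red and paler bars for lower score percentiles. The start of ENO2 is the dotted line 47049 bp from TPI1, the peak 25427 bp upstream of ENO1 is in 3 HIF-2α libraries, and the ALDOC promoter peak is in 7 HIF-1α libraries and 1 HIF-2α library.

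Away from the promoters, the upstream ENO1 site was the 1 distal site with one of the 10 genes nearest. Its percentiles were 49.3 and 25.7 in A549 HIF-2α and 87.9 in HCT116 HIF-2α replicate 2. ALDOC had a peak 13190 bp downstream of its start in both HCT116 HIF-2α libraries and in 0 others, in an intron of PIGS, whose start was nearer. This is why ALDOC counted 3 HIF-2α libraries within 50 kb and 1 at its own promoter. The other 9 sites had another gene nearest, were each in 1 to 3 libraries, and were near PDCD2L, TBX6, DOC2A, UNC119, P3H3, USP5, SPSB2, PHB2 and C12orf57. A distance of 50 kb does not show which gene a peak acts on.

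The glycolytic sites stood high in the HIF-1α lists. Peaks were counted here if one of the 10 genes was their nearest gene, so PGAM1 peaks nearer to RRP12 were left out. Of the 20 best peaks of each HIF-1α library, 3 to 5 were of this kind (median 4, 32 of 160 in all). In HIF-2α libraries it was 1 to 3 (median 1, 12 of 160), with 3 in both HCT116 replicates and 1 in each of the other 6. Some of the highest scores were tied. In HCT116 HIF-1α replicate 2, 5 peaks had a score of exactly 3100, among them GPI, GAPDH and ENO1, so their order is not resolved there.

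The other genes of glycolysis, from a list of 15 covering hexokinases, phosphofructokinases, the PFKFB regulators and lactate dehydrogenases, were bound less uniformly. Of these, 12 had a peak within 50 kb in some library, 4 in all 8 HIF-1α libraries and 2 in all 8 HIF-2α libraries. These 2 were LDHA, which turns pyruvate into lactate, and LDHC, which shares its peaks. LDHA percentiles were 94.8 at the lowest, 98.0 at the median and 99.8 at the highest with HIF-1α, and averaged 94.5 with HIF-2α. Of the 9 genes tested, 3 were called higher with HIF-1α by the exact permutation test. HK2, the inducible hexokinase, differed by 66.4 points (exact permutation test, adjusted p = 0.0289). PFKFB4, which regulates phosphofructokinase, differed by 36.2 points (exact permutation test, adjusted p = 0.0289), and HK1 by 45.0 points (adjusted p = 0.0423). The median over the 9 genes was 23.5 points.

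The core motif was counted on both strands in the central 200 bp of each merged site. RCGTG was present in 10 of the 12 own sites of the 10 genes (83.3%), against 52.2% of all 11664 merged sites. At least 2 copies were present in 5 of 12 (41.7%), against 22.8%, and ACGTG in 8 of 12 (66.7%), against 27.9%. GAPDH and the upstream ENO1 site had no copy in the central 200 bp, although the part of the GAPDH site shared by most peaks held 11 copies and that of the upstream ENO1 site held 1. Wider cores hold more copies, and merged sites differ in width. The 11664 merged sites were not matched to the own sites, which were mostly near start sites and in many libraries. Whether the motif shares differ from those of other recurrent promoter sites was not tested. A match is a sequence description and does not show occupancy of that copy.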

How the data were processed

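ChIP-seq peak lists of 16 libraries were used, 2 per combination of cell line and isoform as named in the labels. According to the submitters' processing notes, reads were trimmed (Trim Galore 0.3.3), aligned to GRCh37 (BWA 0.7.5a-r405) and handled with SAMtools 0.1.19, bedtools 2.17.0 and Picard 2.0.1. The study's methods name T-PIC and MACS, the latter run against a control, and pre-immune rabbit serum as negative control for the precipitations. The labels name MACS alone. Its version, and which library served as its control, are not given in the sources used here. The value that the authors deposited is a peak score with a lowest value of 50 to 50.15 in every list. It was used as a rank alone. Read totals were not used here, so depth and its precision are unknown.

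Python 3.11.15 with numpy 2.4.6, pysam 0.24.0 and matplotlib 3.10.9 and GENCODE release 44 on GRCh37 were used. Each gene took the highest score percentile of any peak centred within 50 kb of a protein-coding start site, or 0. Of the 23398 peaks, 29 off chromosomes 1 to 22, X and Y were left out of distances. Isoforms were compared by two-sided exact permutation of labels within cell lines over genes with a peak in at least 4 libraries, and cell lines within an isoform over genes with a peak in at least 2 libraries. Adjustment was by Benjamini-Hochberg over all genes tested, with a threshold of 0.05. The tests were checked on simulated data. Members and lists were chosen with earlier results of these data known, and 6 of the genes (GPI, ALDOA, PGK1, PGAM1, ENO1 and PKM) are on a list that the study chose in part on these libraries. All members were named, other genes by list or by likeness of their profile. Alternatives covered the score scale, score threshold, number of peaks, window, nearest gene, start sites, gene filter, replicate block, each library and each cell line.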

Additional observations from a re-analysis of the deposited data

Results flagged for a closer look

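At ENO1 the order of the isoforms differed between cell lines. HIF-1α minus HIF-2α in the best score percentile was 4.41 points in A549, 40.8 in PC3 and 11.1 in T47D, and -0.0223 in HCT116. In HCT116 ENO1 was the best peak of both HIF-2α lists and was at rank 2 in both HIF-1α lists, tied with at least 1 other peak in each, so both isoforms were at the top of the scale. The difference between cell lines was not tested. Dixon's test at its 95% critical value was not applied, because every combination of cell line and isoform had 2 libraries.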

How the results depend on the processing

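At the 10 genes 0 of 297 alternative values changed direction, 202 stayed on their side of the threshold, 79 lost a call and 16 gained one. The replicate block and the gene filter leave the difference itself unchanged, so direction could not change there. The other settings drew on the same libraries. Against 7 of the 10 genes, and 414 and 1 of 3789 genes tested, called higher with HIF-1α and HIF-2α (10.9% with HIF-1α), the log10 score gave 10, 1848 and 13 of 3789 (48.8%). The 275 best peaks per library gave 7, 267 and 27 of 719 (37.1%). A window of 10 kb gave 6 of the 10 and 194 of 1482 (13.1%), a window of 1 kb gave 8, 206 and 2 of 979 (21.0%), and the nearest gene alone gave 5 and 136 of 1398 (9.73%). The 275 best peaks with the nearest gene alone, chosen after seeing the data, gave 6, 102 and 15 of 302 (33.8%). With all 11820 genes that had a peak in at least 1 library tested, all these counts were 0, and likewise 0 without A549, without HCT116, without PC3 and without T47D, where 216 relabellings allow no p under 0.00926. Leaving out 1 library in turn gave 2 to 8 of the 10 genes, 161 to 714 genes higher with HIF-1α (4.44% to 19.5% of those tested) and 0 to 3 higher with HIF-2α. Scores of at least 100 left 2 of the 10 genes with a peak in all 8 HIF-2α libraries and 2 in all 16, against 4 and 4. With 1 start site per gene, PGK1 lost its site, because its most upstream annotated start is far from the promoter that held the peaks.

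Replicate numbers did not pair the samples (correlations of deviations -0.0424 to 0.0534), and the fit with the replicate block called 0 of the 10 genes and 0 of all genes, with 256 relabellings that allow no p under 0.0078. Peaks missing from a list could not be told from peaks under its threshold, and the antibody cannot be told apart from the isoform.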

Other observations

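Among tissue-restricted relatives of the 10 enzymes, PKLR and ENO3 had peaks in enough libraries to be tested. PKLR, the pyruvate kinase of liver and red cells, had HIF-1α peaks within 50 kb in 6 libraries (median percentile 59.3, highest 92.5) and a HIF-2α peak in 1, a difference of 50.9 points that missed the threshold by the exact permutation test (adjusted p = 0.0781). ENO3, the enolase of muscle, had peaks in 3 HIF-1α libraries and 1 HIF-2α library, a difference of 16.0 points (exact permutation test, adjusted p = 0.407).

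For a comparison of profiles, each peak was given to its nearest gene alone, which left out PGAM1 peaks nearer to RRP12. The 10 glycolytic genes then averaged 81.1 with HIF-1α and 58.8 with HIF-2α. Genes whose percentiles over the 16 libraries were most like this mean profile were TFRC, EGLN1, SLC28A1, FUT11 and MXI1. Their mean absolute difference from that profile was 10.4 points for TFRC, the transferrin receptor, 13.6 for EGLN1, the HIF prolyl hydroxylase, 13.9 for SLC28A1, 14.7 for FUT11 and 15.5 for MXI1.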
